A study of Mus musculus with 19 samples.

Results

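The livers of mice that were fed a Western diet (WD) and received AN1284 at 1 mg/kg/day were set against the livers of healthy control mice, which ate a normal diet (ND) and received saline. All samples carrying these labels were taken, 4 WD AN1284 livers and 3 ND saline livers of 19 in the series, and all 14743 genes that passed a filter on low values were tested. The question was which genes were still away from the normal level after treatment and which had passed beyond it. The mice were males of the strain C57BL/6JOlaHsd, 4 weeks old at the start, and each liver is a separate mouse with 1 library. The WD gave 50.5% of its energy as fat and contained added sugars and cholesterol (1.25%), with less choline. The ND gave 13.9% of its energy as fat. Both diets were given for 4 months. AN1284, an indoline derivative, or saline was delivered for 8 weeks from micro-osmotic pumps under the skin, while the mice stayed on their diet. Snap-frozen liver was used for poly-A selected, stranded RNA sequencing. The 3 WD saline livers served to show where the diet alone had taken each gene. The 3 ND AN1284 1 mg/kg/day and 3 ND AN1284 5 mg/kg/day livers showed the range of the same gene in other mice on the ND, giving 9 ND livers in all. Treated WD mice and ND saline mice differ in both diet and drug, which cannot be told apart in this comparison alone. Every comparison with the normal level also used the same ND saline livers.

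The liver senses its sterol supply through a pair of opposed programmes. When cholesterol is plentiful, the transcription factor SREBP2 is held back in the endoplasmic reticulum and the genes of cholesterol synthesis and uptake fall. Oxidised sterols at the same time activate the LXR receptors, which raise the transporters that send sterols into bile and onto lipoproteins. The same organ holds resident macrophages, the Kupffer cells, which clear particles from the blood. Its hepatocytes carry the secretory, detoxifying and nitrogen-handling work of the liver. In whole-tissue RNA, fewer cells of a type and less RNA per cell cannot be told apart.

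The treated WD libraries held 25193552 to 32189581 counted reads and the ND saline libraries 23326800 to 25112452. The authors' size factors, which put libraries on a common scale, were 0.8919 to 1.2708 in treated WD livers, 1.0304 to 1.2679 in WD saline livers and 0.7592 to 0.7908 in ND saline livers, the lowest of all groups. The 500 most abundant genes took 60.9 to 65.1% of the normalized reads in treated WD livers, 57.5 to 58.6% in WD saline livers and 65.8 to 67.1% in ND saline livers. Scaling by total reads instead moved the median log2 difference of all genes to 0.187, against -0.009 with the authors' scaling, and changed the split of the calls to 4175 higher and 838 lower. Changes below are therefore relative to the median gene of the authors' scaling. The treated WD livers were not alike. Replicate 1 had the largest size factor and the lowest share of abundant genes. Replicate 2 had the highest sum of neutrophil genes, and replicate 3 had the lowest levels of several leukocyte genes. The hepatocyte markers of the list used here summed to 2780000 to 3010000 normalized counts in treated WD livers, 1760000 to 2170000 in WD saline livers and 4190000 to 4430000 in ND saline livers, and none was at 0 in all livers of a group. In ND AN1284 livers the sums were 3050000 to 3810000 at 1 mg/kg/day and 3790000 to 4160000 at 5 mg/kg/day.

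Of the genes tested, 4488 (30.4%) differed between treated WD livers and ND saline livers at an adjusted p under 0.05 in limma, a linear model fitted to all genes at once. Higher in treated WD livers were 2496 genes (16.9%) and lower were 1992 (13.5%), with a median size of 0.71 on the log2 scale. All 4 treated WD livers lay above all 3 ND saline livers in 2610 genes (17.7%) and below them in 2314 (15.7%), called or not. Rises were more often large, with 1140 genes higher and 460 lower by more than 1 on the log2 scale. Among the 500 most abundant genes, however, 39 were higher and 165 were lower. In 688 of the genes that passed, the treated WD livers also lay outside all 9 ND livers, above them in 380 genes and below them in 308.

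The same model called 7820 genes between WD saline and ND saline livers, and 4000 of these did not pass between treated WD and ND saline livers. A gene was counted as still changed when it passed in both comparisons in the same direction, which held for 3787 genes, 2144 higher and 1643 lower. Of these, 856 had moved back towards normal in a direct test of treated WD against WD saline livers, and 2900 did not pass that test. A gene was counted as moved further when the direct test passed in the direction away from normal, which held for 31 genes, 19 higher and 12 lower. In 14 of these the treated livers lay outside all 9 ND livers, beside 688 of the 4488 genes that passed. In the rest they fell within or overlapped the range of mice on the ND. A gene was counted as past the normal level when it passed in both comparisons in opposite directions, which held for 33 genes, 11 higher and 22 lower. A further 668 genes passed in treated WD livers and not in WD saline livers, 341 of them higher and 327 lower, and 199 of these also passed the direct test. The smaller of these groups moved with single livers. Past the normal level were 9 genes without ND saline replicate 1 or without ND saline replicate 3. Moved further were 5 genes without WD saline replicate 3 and 68 without WD AN1284 replicate 3. Under scaling by totals 28 genes were past the normal level, 8 of them among the 33, and 25 had moved further, 8 of them among the 31.

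**Figure D1:**
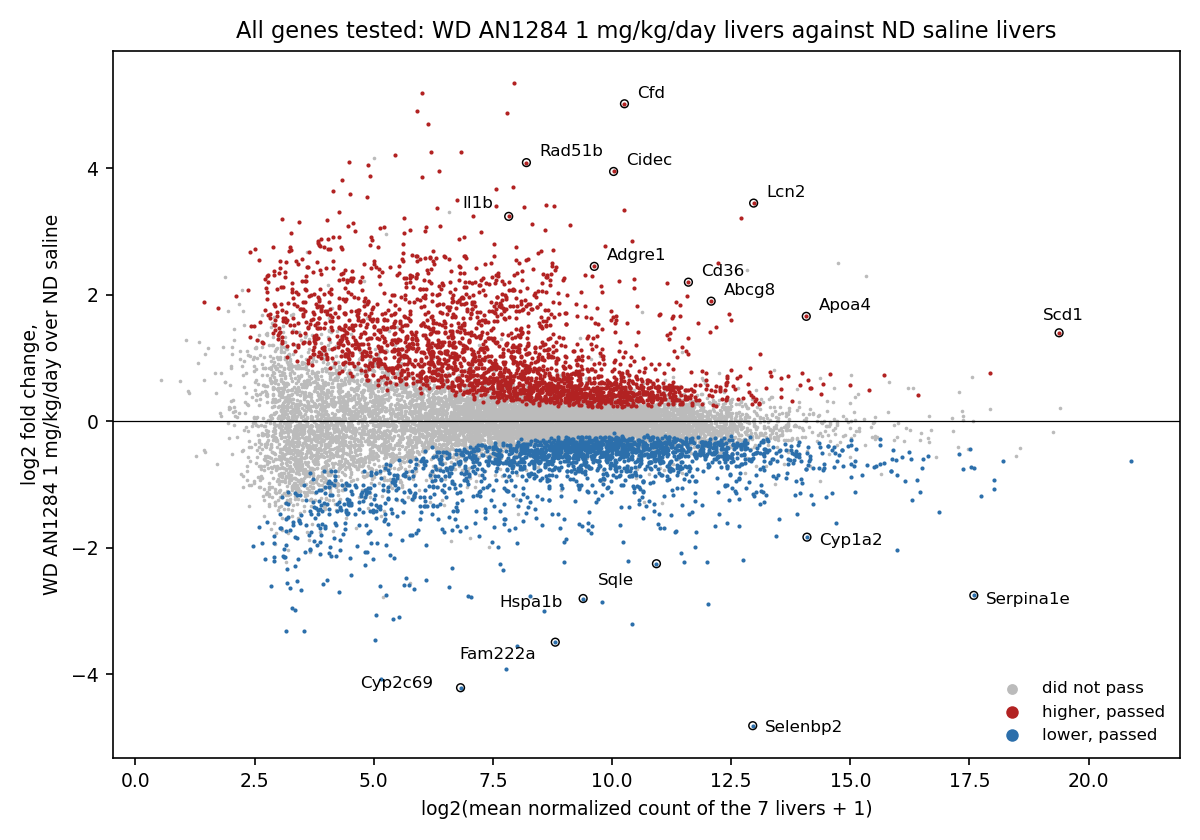
Each point is a gene, with the log2 of its mean normalized count over the 7 livers (plus 1) on the horizontal axis and its log2 fold change, WD AN1284 1 mg/kg/day over ND saline, on the vertical axis. The 2496 higher genes (red) reach further from 0 than most of the 1992 lower genes (blue), while at high levels blue points outnumber red ones.

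The largest rises included genes of lipid droplets and of leukocytes. By the rule used for naming, which asked for a mean of at least 100 normalized counts and no overlap between the groups, the 12 largest were Cfd, Cidea, Ifit1bl1, Rad51b, Cidec, Ly6d, S100a9, Themis, Lcn2, Itgax, Grap2 and Cd300e. Cidea, a protein of lipid droplet growth, had 266, 124, 429 and 683 normalized counts in treated WD livers, 1300, 1910 and 2160 in WD saline livers, and 5.11, 3.95 and 40.5 in ND saline livers. Every treated liver lay above every ND liver and below every WD saline liver (log2 fold change against ND saline 4.87 ± 0.90, SE, adjusted p = 0.00119), although the direct test against WD saline did not pass (adjusted p = 0.061). Cfd, which encodes adipsin and is best known from fat cells, had 863, 171, 3000 and 4390 normalized counts in treated WD livers, 529, 805 and 230 in WD saline livers, and 28.1, 15.8 and 98.6 in ND saline livers. Its spread among the treated livers was wide and overlapped the WD saline livers (5.02 ± 1.03 against ND saline, adjusted p = 0.00263). An ND AN1284 liver reached 640 for Cfd, above the lowest treated WD liver. With voom on the raw reads Cfd did not pass (adjusted p = 0.0715), nor did S100a9, Itgax and Grap2 (adjusted p = 0.0936, 0.0711 and 0.0694). Rad51b, a protein of DNA repair, had 495, 756, 300 and 426 normalized counts in treated WD livers, 892, 940 and 927 in WD saline livers, and 24.3, 22.4 and 34.1 in ND saline livers (4.09 ± 0.36, adjusted p = 2.02e-06). The ND AN1284 livers had at most 79.8.

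The largest falls were Selenbp2, Cyp2c69, Cyp2c40, Ppp1r3g, Fam222a, Mup12, Gm4956, Serpina4-ps1, Col27a1, Hspa1b, Adgrf1 and Ugt2b38. Ppp1r3g averaged 49.1 normalized counts in treated WD livers and 533 in ND saline livers. In ND AN1284 livers it averaged 34.5 at 1 mg/kg/day and 48.0 at 5 mg/kg/day, so that only the ND saline livers stood apart. Selenbp2, a selenium-binding protein of the liver, had 614, 149, 934 and 1280 normalized counts in treated WD livers, 422, 1070 and 375 in WD saline livers, and 17100, 26000 and 9510 in ND saline livers. The treated livers overlapped the WD saline livers and lay far below all ND livers (-4.81 ± 0.60, adjusted p = 9.17e-05). Fam222a had 66.1, 121, 67.7 and 83.0 normalized counts in treated WD livers, 46.6, 51.1 and 33.9 in WD saline livers, and 945, 917 and 933 in ND saline livers (-3.49 ± 0.28, adjusted p = 8.51e-07), with 127 to 404 in the 6 ND AN1284 livers. Cyp2c, Mup and Serpina genes belong to families of near-identical copies, among which reads may be divided, so that values of single members are uncertain.

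**Figure D2:**
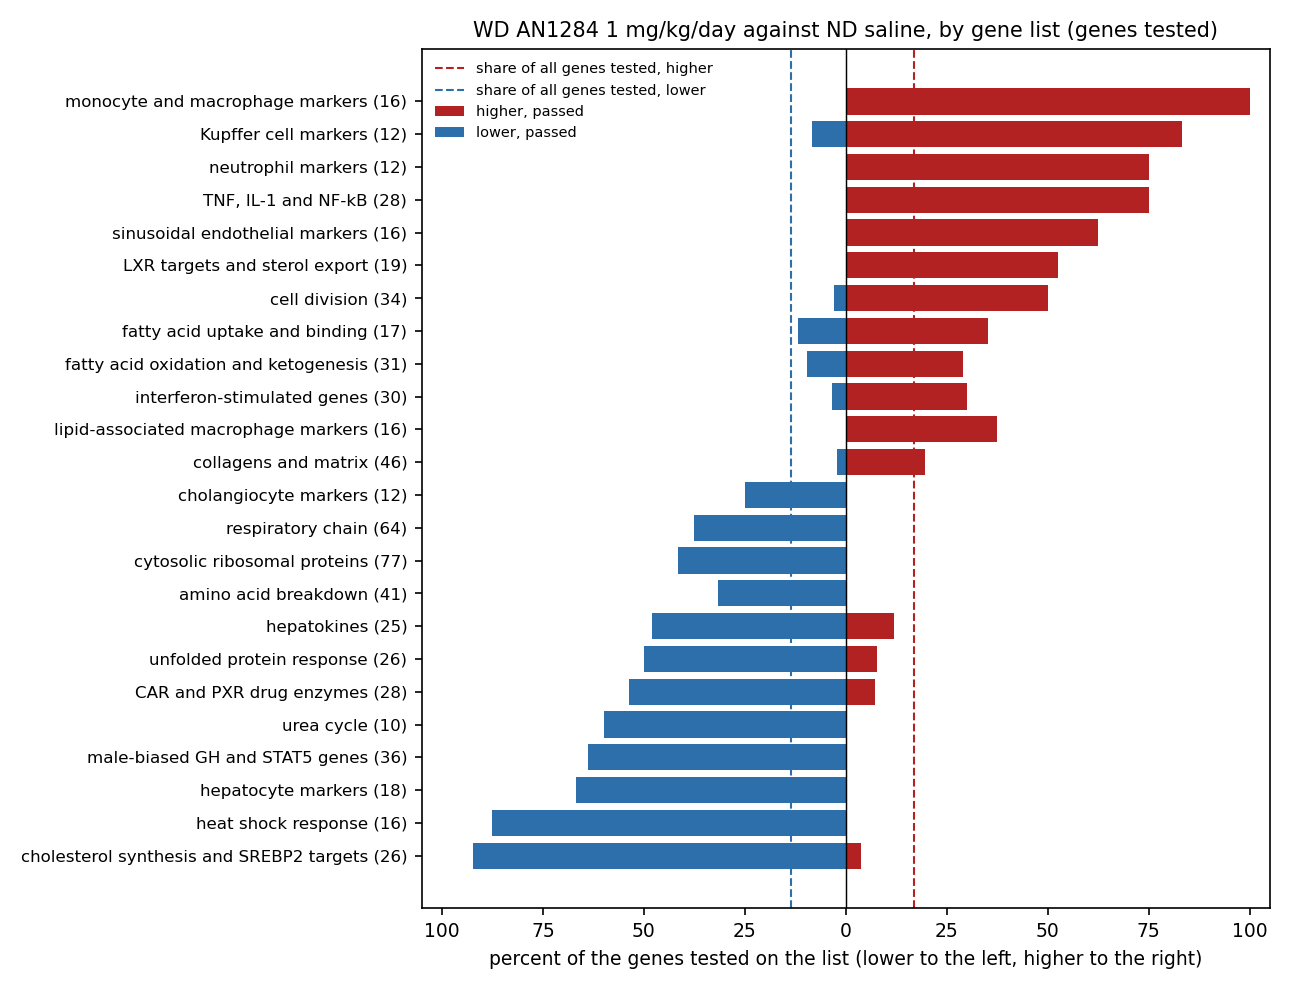
Bars give the percent of each list's tested genes that were higher (red, right) or lower (blue, left) in WD AN1284 1 mg/kg/day livers than in ND saline livers, with the number of genes tested in parentheses and dashed lines at the shares over all genes, 16.9% higher and 13.5% lower. The cholesterol synthesis list reaches furthest to the left, with 24 of 26 genes lower, and the monocyte and macrophage list furthest to the right, with 16 of 16 higher.

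Cholesterol synthesis had the largest share of lowered genes of all lists counted. Of 26 genes of the pathway and its SREBP2-driven companions, 24 were lower and 1 was higher in treated WD livers, against 13.5% lower and 16.9% higher over all genes. These shares over all genes are the background for each list counted below. The median log2 fold change was -1.25 in treated WD livers and -1.04 in WD saline livers, each against ND saline. Of the 24 lower genes 15 lay below all 9 ND livers, beside 308 of the 1992 lower genes overall in the test. With each liver left out in turn, 21 to 24 were lower, and 20 under scaling by totals. Hmgcs1, the synthase at the start of the pathway, had 5130, 7650, 6700 and 4070 normalized counts in treated WD livers, 8660, 8500 and 10100 in WD saline livers, and 12000, 14600 and 15100 in ND saline livers. It counted as moved further (direct test -0.67, adjusted p = 0.039). Its lowest ND AN1284 liver had 6510, within the range of the treated WD livers.

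Mvd, the decarboxylase that yields isopentenyl diphosphate, lies at chr8:122433601-122443422 (GRCm38) and had 124, 242, 270 and 181 normalized counts in treated WD livers, 502, 438 and 369 in WD saline livers, and 875, 796 and 1090 in ND saline livers. The groups did not overlap in either step, and treated livers were also below the 302 to 645 of the ND AN1284 livers (-2.22 ± 0.26, adjusted p = 2.57e-05, and -1.14 against WD saline, adjusted p = 0.0039). Together with Abcg5, it was 1 of only 2 genes that counted as moved further with each liver left out in turn. Fdps, which joins the isoprenoid units, had 186, 278, 296 and 229 normalized counts in treated WD livers, 373, 287 and 340 in WD saline livers, and 940, 821 and 889 in ND saline livers (-1.86 ± 0.15, adjusted p = 9.1e-07). It stood apart from the ND livers in full and from the WD saline livers only in part, with a direct test that passed narrowly (adjusted p = 0.045).

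Most later enzymes did not pass the direct test against WD saline. Sqle, the squalene epoxidase, had 601, 1040, 916 and 526 normalized counts in treated WD livers, 1150, 840 and 778 in WD saline livers, and 3210, 3940 and 3450 in ND saline livers (-2.25 ± 0.28, adjusted p = 4.95e-05). Idi1, the isomerase of the isoprenoid units, had 1270, 1450, 1190 and 832 normalized counts in treated WD livers, 1270, 1360 and 1650 in WD saline livers, and 4230, 5510 and 5150 in ND saline livers (-2.08 ± 0.21, adjusted p = 8.34e-06). Both genes overlapped between treated and untreated WD livers and lay below all 9 ND livers. Fdft1, Lss, Cyp51, Msmo1 and Nsdhl, which carry squalene through lanosterol to later sterols, were lower by 1.31 to 1.75 on the log2 scale, each without overlap.

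Nearer the end of the pathway, Ebp, a sterol isomerase, had 3920, 4690, 4970 and 5040 normalized counts in treated WD livers, 2260, 2800 and 2220 in WD saline livers, and 7600, 6750 and 7450 in ND saline livers. It was still low (-0.65 ± 0.12, adjusted p = 0.000748) but had moved back towards normal (0.94 against WD saline, adjusted p = 2.6e-05).

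Regulators of the pathway were less alike. Srebf2, which encodes SREBP2 itself, had 1550, 1750, 1710 and 1580 normalized counts in treated WD livers, 1790, 1810 and 1780 in WD saline livers, and 1720, 2120 and 1880 in ND saline livers, and did not pass (-0.21 ± 0.09, adjusted p = 0.0906). Insig1, a sterol-sensing retention protein, was lower by 1.11 on the log2 scale (SE 0.16, adjusted p = 0.000128). Its treated WD livers, at 4320 to 8030, overlapped the 6050 to 8280 of the ND AN1284 livers, and the ND saline livers stood apart at 12200 to 13800.

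**Figure D3:**
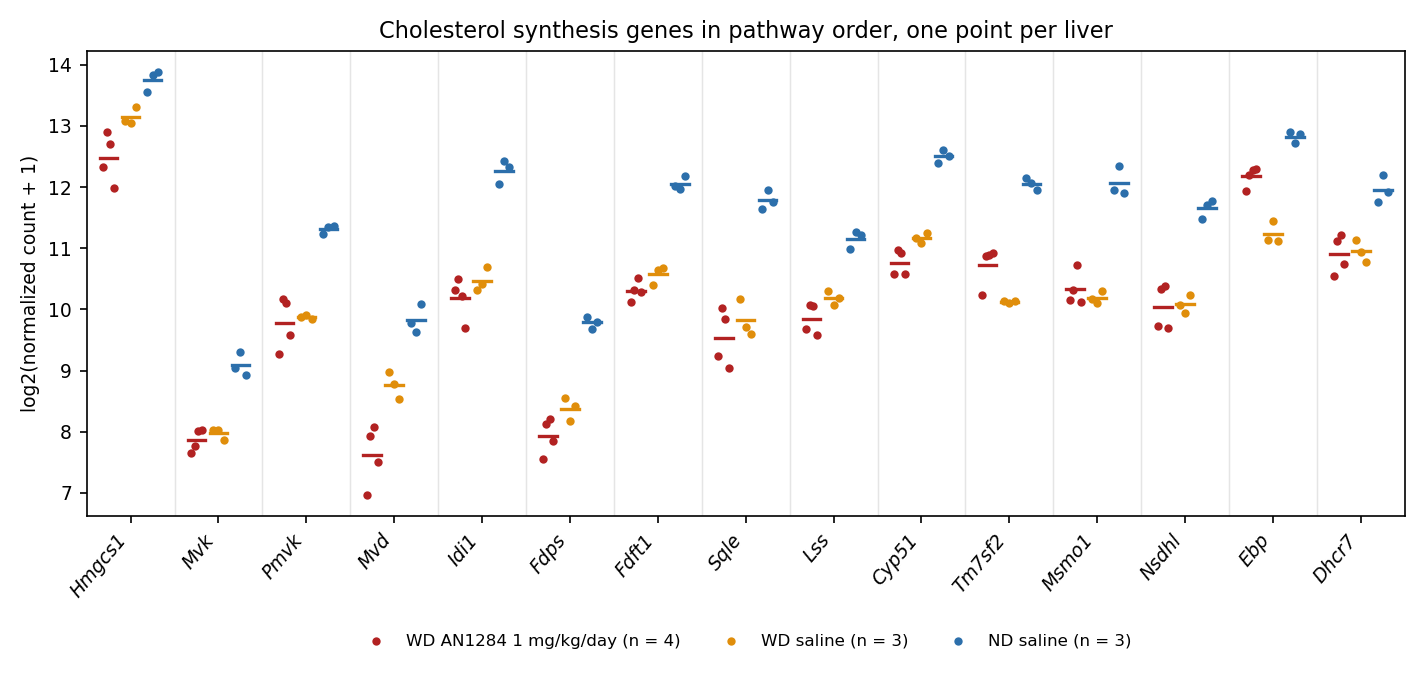
Cholesterol synthesis genes in pathway order, with each point the log2(normalized count + 1) of a liver and each line a group mean (WD AN1284 1 mg/kg/day, n = 4, red; WD saline, n = 3, orange; ND saline, n = 3, blue). Red and orange points lie below blue ones from Hmgcs1 to Dhcr7, all red points lie below orange ones at Mvd, and all red points lie above orange ones at Tm7sf2 and Ebp.

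Because these genes moved together, their promoters are shown for 4 members, from 250 bases before to 50 after the annotated start in RefSeq on GRCm38.p6, written from 5′ to 3′ on the strand of the gene. Capitals mark matches to CCAAT, the core of the box bound by the NF-Y complex that works beside SREBP2, read on either strand so that ATTGG also counts, and to TCACNCCAC, a form of the sterol regulatory element, also sought on both strands.
Hmgcs1, chr13:119690101-119690400, plus strand: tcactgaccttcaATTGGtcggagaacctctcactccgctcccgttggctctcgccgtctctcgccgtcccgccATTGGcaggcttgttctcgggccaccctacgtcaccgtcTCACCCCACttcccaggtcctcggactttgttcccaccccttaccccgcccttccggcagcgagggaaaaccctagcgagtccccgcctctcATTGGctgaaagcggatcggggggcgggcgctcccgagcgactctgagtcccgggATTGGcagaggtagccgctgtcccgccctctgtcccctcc
Mvd, chr8:122443373-122443672, minus strand: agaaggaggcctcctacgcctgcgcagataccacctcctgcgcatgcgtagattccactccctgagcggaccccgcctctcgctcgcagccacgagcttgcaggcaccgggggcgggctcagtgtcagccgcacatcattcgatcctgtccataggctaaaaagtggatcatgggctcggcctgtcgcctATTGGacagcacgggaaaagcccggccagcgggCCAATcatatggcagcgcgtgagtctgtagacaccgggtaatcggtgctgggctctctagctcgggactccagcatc
Idi1, chr13:8885356-8885655, plus strand: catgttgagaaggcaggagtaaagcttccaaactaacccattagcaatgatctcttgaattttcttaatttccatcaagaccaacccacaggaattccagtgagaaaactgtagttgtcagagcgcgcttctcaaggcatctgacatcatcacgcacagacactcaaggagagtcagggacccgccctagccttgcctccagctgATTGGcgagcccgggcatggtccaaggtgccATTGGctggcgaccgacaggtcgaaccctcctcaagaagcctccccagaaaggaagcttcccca
Cyp51, chr5:4104648-4104947, minus strand: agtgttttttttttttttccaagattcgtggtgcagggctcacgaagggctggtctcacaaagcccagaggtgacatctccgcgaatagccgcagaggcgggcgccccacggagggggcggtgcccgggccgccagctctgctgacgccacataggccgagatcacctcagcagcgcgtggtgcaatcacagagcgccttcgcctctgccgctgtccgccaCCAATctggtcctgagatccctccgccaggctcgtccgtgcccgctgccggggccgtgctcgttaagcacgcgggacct
Of the 26 genes, 18 had a promoter in the RefSeq table, and 17 of these (94.4%) held at least 1 CCAAT match, against 11096 of 27025 genes (41.1%). Counted over windows of the same length, since a gene can have several starts, the shares were 81% for the list and 37.4% for all. The sterol element form was found in 1 of the 18 genes, Hmgcs1, against 1.44% of all genes. Fdps, Fdft1, Sqle and Stard4 were among those not matched. These are matches of letters and describe no binding in these livers.

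Sterol export moved the other way. Of 19 LXR targets and sterol transport genes, 10 were higher and none was lower in treated WD livers. Their median log2 fold change was 0.41 there and 0.47 in WD saline livers. Abcg5 and Abcg8, the neighbouring genes whose products form the pump for sterols into bile, lie at chr17:84658234-84683011 and chr17:84676302-84700333 (GRCm38), so that they overlap. Abcg5 had 4900, 3200, 5110 and 4670 normalized counts in treated WD livers, 1710, 1970 and 1780 in WD saline livers, and 998, 1270 and 1080 in ND saline livers (1.98 ± 0.16, adjusted p = 9.1e-07). Abcg8 had 6830, 4560, 7240 and 6600 normalized counts in treated WD livers, 2200, 2500 and 2260 in WD saline livers, and 1310, 1840 and 1940 in ND saline livers (1.90 ± 0.17, adjusted p = 1.83e-06). In both genes all treated livers exceeded all WD saline and all 9 ND livers, and the direct tests against WD saline gave 1.28 (adjusted p = 2.7e-05) and 1.42 (adjusted p = 1.3e-05). Library preparation kept the strand, but how the counting used it is not given in the sources used here.

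Other LXR targets were high without a further step. Abcg1, which moves cholesterol to HDL and is abundant in macrophages, had 1060, 586, 358 and 582 normalized counts in treated WD livers, 953, 640 and 524 in WD saline livers, and 141, 120 and 98.6 in ND saline livers (2.33 ± 0.30, adjusted p = 5.03e-05). Abca1, the exporter to apolipoprotein A-I, and Mylip, a ubiquitin ligase, were higher by 0.69 and 1.14 on the log2 scale. For Abca1 an ND AN1284 liver reached 5950, within the 5630 to 7560 of the treated WD livers. The receptor gene Nr1h3 itself had 3110, 3280, 2910 and 3630 normalized counts in treated WD livers, 2310, 2200 and 1850 in WD saline livers, and 2650, 2560 and 2810 in ND saline livers. Its treated livers lay above both other groups, and the test against ND saline did not pass (0.27 ± 0.11, adjusted p = 0.0613). Rxra, the common partner of LXR, FXR and PPAR receptors, had 12500, 12900, 13300 and 14300 normalized counts in treated WD livers, 8900, 8540 and 8710 in WD saline livers, and 8960, 11800 and 9950 in ND saline livers (0.38 ± 0.09, adjusted p = 0.00451). Its WD saline livers did not pass against ND saline, and the ND AN1284 livers had 12800 to 13900, within the range of the treated WD livers.

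Bile acid genes stayed low in part. Of 23 genes of bile acid synthesis and transport, 3 were higher and 11 were lower, with a median of -0.30 in treated WD livers and -0.80 in WD saline livers. Cyp7b1, which hydroxylates oxysterols in the alternative pathway, had 1630, 2130, 2820 and 3140 normalized counts in treated WD livers, 1080, 1290 and 1010 in WD saline livers, and 7900, 8290 and 6250 in ND saline livers (-1.66 ± 0.22, adjusted p = 6.5e-05). It had moved back by 1.07 on the log2 scale and still lay below all 9 ND livers. Cyp27a1, the mitochondrial sterol hydroxylase, was lower by 0.46 on the log2 scale (SE 0.11, adjusted p = 0.00453). Cyp7a1, the rate-limiting enzyme of the classical pathway, had 2170, 584, 1670 and 2110 normalized counts in treated WD livers, 455, 1010 and 1000 in WD saline livers, and 1470, 1860 and 1170 in ND saline livers. The treated livers overlapped both other groups (adjusted p = 0.977 against ND saline). Abcb11, the bile salt export pump, and Nr1h4, which encodes FXR, did not pass (adjusted p = 0.486 and 0.0581).

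Genes of fat handling were called in both directions. Of 19 genes of de novo lipogenesis, 4 were higher and 4 were lower (21.1% each), with a median of 0.01. Of 17 genes of lipid droplets and lipolysis, 5 were higher and 1 was lower (29.4% and 5.88%), with a median of 0.31. Over all genes 16.9% were higher and 13.5% were lower, close to the shares of the lipogenesis list. Cd36, the fatty acid translocase, had 5430, 3810, 5100 and 4200 normalized counts in treated WD livers, 8790, 7350 and 10100 in WD saline livers, and 579, 1160 and 1470 in ND saline livers. The groups did not overlap in either step, so that Cd36 had moved part of the way back (-0.92 against WD saline, adjusted p = 0.007) and was still 2.20 ± 0.23 higher than normal on the log2 scale (adjusted p = 8.61e-06). Scd1, the desaturase that makes oleate, had 816000, 862000, 1130000 and 891000 normalized counts in treated WD livers, 1000000, 1150000 and 1150000 in WD saline livers, and 260000, 318000 and 505000 in ND saline livers (1.40 ± 0.21, adjusted p = 0.000135). It lay above all 9 ND livers and overlapped the WD saline livers. Fasn, the fatty acid synthase, had 18400, 32000, 35000 and 19200 normalized counts in treated WD livers, 74900, 60900 and 66400 in WD saline livers, and 20200, 22300 and 32600 in ND saline livers, and no difference from normal was detected (0.04 ± 0.33, adjusted p = 0.946). Acaca, the carboxylase before it, stayed higher by 0.76 on the log2 scale (SE 0.18, adjusted p = 0.00462), at 4070, 5680, 5940 and 3810 in treated WD livers, 10000, 8490 and 10300 in WD saline livers, and 2320, 3120 and 3100 in ND saline livers. ND AN1284 livers reached 4660 for Acaca, within the range of the treated WD livers.

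Of 17 genes of fatty acid uptake and binding, 6 were higher (35.3%) and 2 were lower (11.8%), against 16.9% and 13.5% of all genes, with a median of 0.14. Lpl, the lipase that releases fatty acids from lipoproteins, had 5010, 1920, 2900 and 3820 normalized counts in treated WD livers, 5310, 4380 and 3310 in WD saline livers, and 1220, 474 and 598 in ND saline livers (2.19 ± 0.33, adjusted p = 0.000199). Cidec, a partner of Cidea in droplet fusion, was 3.95 ± 0.85 higher on the log2 scale (adjusted p = 0.00351). Plin2, which coats droplets, had 12000, 18000, 18500 and 19600 normalized counts in treated WD livers, 27200, 30000 and 30700 in WD saline livers, and 14500, 11500 and 14600 in ND saline livers, with overlap (adjusted p = 0.269). Apoa4, an apolipoprotein of triglyceride-rich particles, had 16300, 18300, 28400 and 35500 normalized counts in treated WD livers, 79000, 129000 and 102000 in WD saline livers, and 7860, 5820 and 8830 in ND saline livers (1.66 ± 0.26, adjusted p = 0.000234). Its treated livers all lay below the WD saline livers and above all 9 ND livers.

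Genes of fatty acid oxidation were higher in 9 of 31 and lower in 3 (29.0% and 9.68%, against 16.9% and 13.5% of all genes). Ppara, the receptor that drives them, had 2830, 3350, 4250 and 3110 normalized counts in treated WD livers, 3350, 3220 and 3840 in WD saline livers, and 1330, 1830 and 1840 in ND saline livers (1.02 ± 0.15, adjusted p = 0.000106), with 2240 to 2910 in ND AN1284 livers. Cpt1a, the gate of fatty acid entry into mitochondria, and Vnn1, a pantetheinase and PPARα target, were 0.78 and 1.84 higher on the log2 scale (adjusted p = 0.000135 and 2.3e-05), both above all 9 ND livers. These genes overlapped the WD saline livers or, for Vnn1, lay just below them.

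The working programme of hepatocytes was still lower than in ND saline livers. Of 18 hepatocyte markers, 12 were lower and none was higher, with a median of -0.62 in treated WD livers and -1.37 in WD saline livers. Of 36 genes that growth hormone and STAT5 keep high in male livers, 23 were lower, with medians of -0.90 in treated WD livers and -2.08 in WD saline livers. Of the 12 lower markers 3, and of the 23 lower male-biased genes 6, lay below all 9 ND livers. Over all genes this held for 308 of the 1992 lower ones. These lists moved with the summed hepatocyte markers given above, and the part of that sum in each result was not tested. Cyp1a2, which oxidises caffeine, had 8660, 7410, 9110 and 8090 normalized counts in treated WD livers, 3180, 3630 and 4530 in WD saline livers, and 33000, 28600 and 27100 in ND saline livers. No 2 of these groups overlapped (-1.83 ± 0.12 against ND saline, adjusted p = 1.14e-07). The ND AN1284 livers had 16500 to 22200, below the ND saline livers and above the treated WD livers. Its relative Cyp1a1 and their regulator Ahr did not pass (adjusted p = 0.872 and 0.234).

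Of 28 drug-metabolising enzymes driven by the receptors CAR and PXR, 15 were lower (53.6%) and 2 were higher (7.14%), against 13.5% and 16.9% of all genes. Cyp2c40 had 38.6, 14.4, 15.4 and 52.7 normalized counts in treated WD livers, 11.6, 9.89 and 10.3 in WD saline livers, and 178, 597 and 632 in ND saline livers (-3.91 ± 0.59, adjusted p = 0.00019). Ugt2b38, a glucuronosyltransferase, had 88.1, 73.9, 68.8 and 117 normalized counts in treated WD livers, 70.8, 129 and 79.7 in WD saline livers, and 778, 415 and 612 in ND saline livers (-2.76 ± 0.26, adjusted p = 3.5e-06). Ugt2b38 overlapped the WD saline livers, and Cyp2c40 lay just above them. The CAR gene Nr1i3 was lower by 0.76 on the log2 scale (adjusted p = 0.0233), a call lost without WD AN1284 replicate 1, ND saline replicate 1 or ND saline replicate 3 (adjusted p up to 0.0844). Elovl3, a male-biased elongase of very long fatty acids, was intermediate, with 8700, 14200, 11700 and 12200 normalized counts in treated WD livers, 3680, 6240 and 6260 in WD saline livers, and 29900, 31200 and 25200 in ND saline livers (-1.31 ± 0.18, adjusted p = 8.97e-05). The ND AN1284 livers, at 11500 to 19100 for Elovl3, overlapped the treated WD livers.

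Nitrogen handling followed the same order. Of 10 urea cycle genes, 6 were lower (60.0%) and none was higher. Of 41 genes of amino acid breakdown, 13 were lower (31.7%, against 13.5% of all genes) and none was higher. Ass1, the argininosuccinate synthase, had 51700, 51200, 75900 and 63900 normalized counts in treated WD livers, 21100, 32900 and 29000 in WD saline livers, and 121000, 131000 and 138000 in ND saline livers (-1.12 ± 0.17, adjusted p = 0.000138). Arg1, the arginase that releases urea, had 24300, 29500, 32800 and 27100 normalized counts in treated WD livers, 11100, 14100 and 13000 in WD saline livers, and 43200, 43800 and 43900 in ND saline livers (-0.63 ± 0.12, adjusted p = 0.00073). In both genes the treated livers lay between the WD saline and ND saline livers, with no overlap on either side. For Ass1 they also lay below all 9 ND livers, while for Arg1 they overlapped the 30600 to 37300 of the ND AN1284 livers. Tat, the tyrosine aminotransferase, was 2.03 ± 0.24 lower on the log2 scale than in ND saline livers, which had 98400, 124000 and 112000, but its 16900, 34200, 35500 and 26900 in treated WD livers overlapped the 21900 to 39700 of the ND AN1284 livers.

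Of 33 genes of glucose production and glycolysis, 6 were higher (18.2%) and 7 were lower (21.2%), close to the 16.9% and 13.5% of all genes. Pck1, the first committed enzyme of gluconeogenesis, had 33900, 59800, 61700 and 51200 normalized counts in treated WD livers, 13300, 22100 and 21900 in WD saline livers, and 120000, 125000 and 114000 in ND saline livers (-1.25 ± 0.21, adjusted p = 0.000397). G6pc, which releases free glucose, had 3020, 9590, 7940 and 6210 normalized counts in treated WD livers, 6330, 7470 and 6530 in WD saline livers, and 23200, 16900 and 14700 in ND saline livers, so that treated livers overlapped the WD saline livers (-1.54 ± 0.34, adjusted p = 0.00318). Both genes also overlapped the ND AN1284 livers, whose lowest values were 47600 for Pck1 and 8210 for G6pc. Irs2, the insulin receptor substrate, was 1.64 ± 0.24 lower on the log2 scale (adjusted p = 0.000153), with 601 to 1460 in ND AN1284 livers, against 484 to 685 in treated WD livers and 1230 to 2500 in ND saline livers. Igf1, the growth factor that the liver secretes under growth hormone, had 11800, 9250, 11600 and 13700 normalized counts in treated WD livers, 7770, 9630 and 10200 in WD saline livers, and 22400, 18300 and 24400 in ND saline livers (-0.91 ± 0.16, adjusted p = 0.000617). The ND AN1284 livers, at 12300 to 19600 for Igf1, overlapped the treated WD livers. Of 25 secreted hepatokines, 12 were lower (48.0%) and 3 were higher (12.0%), against 13.5% and 16.9% of all genes.

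Housekeeping complexes stayed slightly lower than in ND saline livers. Of 77 cytosolic ribosomal protein genes 32 were lower and none was higher, with medians of -0.35 in treated WD livers and -0.59 in WD saline livers. Of 64 respiratory chain genes 24 were lower and none was higher, with medians of -0.33 in treated WD livers and -0.73 in WD saline livers. These medians stand beside the shift of all genes to 0.187 under scaling by totals. Alb, the albumin gene, had 1650000, 1820000, 1450000 and 1450000 normalized counts in treated WD livers, 1010000, 1280000 and 1030000 in WD saline livers, and 2470000, 2420000 and 2410000 in ND saline livers (-0.62 ± 0.16, adjusted p = 0.00884). The ND AN1284 livers, at 1620000 to 2690000 for Alb, overlapped the treated WD livers. Cyp2e1, the ethanol-oxidising enzyme of the central lobule, by contrast had 176000, 142000, 194000 and 184000 normalized counts in treated WD livers, 73300, 95600 and 106000 in WD saline livers, and 158000, 171000 and 162000 in ND saline livers, with no difference from normal detected (adjusted p = 0.681).

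Macrophage genes remained high. All 16 monocyte and macrophage markers were higher in treated WD livers, with a median of 1.87, against 2.15 in WD saline livers. Their summed normalized counts were 17500 to 28000 in treated WD livers, 18500 to 28500 in WD saline livers and 5150 to 6820 in ND saline livers. The ND AN1284 5 mg/kg/day livers, on the ND, also had 12000 to 16600. With each liver left out in turn, 14 to 16 of the markers were higher. Csf1r, the receptor for macrophage colony-stimulating factor, had 4990, 3670, 3210 and 3170 normalized counts in treated WD livers, 4400, 2830 and 2540 in WD saline livers, and 1200, 925 and 895 in ND saline livers (1.89 ± 0.21, adjusted p = 1.5e-05). Adgre1, which encodes F4/80, had 1590, 1080, 1160 and 1010 normalized counts in treated WD livers, 1580, 1050 and 881 in WD saline livers, and 308, 254 and 132 in ND saline livers (2.45 ± 0.33, adjusted p = 9.66e-05). For both genes every treated liver exceeded all 9 ND livers and overlapped the WD saline livers.

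Kupffer cell markers were higher in 10 of 12 and lower in 1, C6, a complement component, with a median of 1.58 in treated WD livers and 0.89 in WD saline livers. Clec4f, a lectin of resident Kupffer cells, had 5200, 5130, 5100 and 4420 normalized counts in treated WD livers, 4490, 2280 and 1830 in WD saline livers, and 2160, 1410 and 1570 in ND saline livers (1.56 ± 0.24, adjusted p = 0.000183). The treated livers were tightly grouped and overlapped only the highest WD saline liver, and the direct test passed (0.90, adjusted p = 0.011). Timd4, a receptor for dying cells on long-lived Kupffer cells, had 585, 459, 420 and 337 normalized counts in treated WD livers, 340, 83.2 and 93.9 in WD saline livers, and 175, 90.9 and 114 in ND saline livers (1.85 ± 0.42, adjusted p = 0.00351), while the WD saline livers did not pass (adjusted p = 0.74). The ND AN1284 livers reached 363 for Timd4 and 4010 for Clec4f. The summed Kupffer markers were 28900 to 37000 in treated WD livers, 18700 to 32800 in WD saline livers, 17200 to 21400 in ND saline livers and 18000 to 28500 in ND AN1284 livers.

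Lipid-associated macrophages gather in fatty liver. Of their 16 markers, 6 were higher in treated WD livers (37.5%, against 16.9% of all genes, median 0.35), and 15 passed on the WD alone (median 2.03). Trem2, a lipid-sensing receptor, had 101, 46.7, 13.3 and 59.4 normalized counts in treated WD livers, 234, 202 and 198 in WD saline livers, and 8.94, 5.27 and 10.1 in ND saline livers (2.36 ± 0.49, adjusted p = 0.00189). Gpnmb, a glycoprotein of lipid-laden macrophages, had 92.9, 21.2, 13.3 and 35.9 normalized counts in treated WD livers, 1010, 769 and 637 in WD saline livers, and 7.67, 5.27 and 20.2 in ND saline livers, and did not pass against ND saline (1.63 ± 0.71, adjusted p = 0.0913). Itgax, which encodes CD11c, stayed high on average but ranged widely, with 1360, 614, 63.6 and 568 normalized counts in treated WD livers, 635, 404 and 354 in WD saline livers, and 42.2, 31.6 and 41.7 in ND saline livers (3.42 ± 0.74, adjusted p = 0.00321). Its ND AN1284 livers reached 166, above the lowest treated WD liver.

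Several leukocyte receptors passed in treated WD livers and not in WD saline livers, or had moved further. Cd300e, an activating receptor of monocytes, had 1480, 675, 142 and 630 normalized counts in treated WD livers, 366, 71.7 and 67.8 in WD saline livers, and 66.4, 35.6 and 54.4 in ND saline livers (3.41 ± 0.66, adjusted p = 0.00139, and 2.16 against WD saline, adjusted p = 0.026). Adgre4, a macrophage relative of Adgre1, had 1320, 634, 346 and 462 normalized counts in treated WD livers, 541, 178 and 207 in WD saline livers, and 116, 83.0 and 79.7 in ND saline livers (2.71 ± 0.39, adjusted p = 0.00015). In both genes replicate 1 was the highest and replicate 3 the lowest treated liver, as in Itgax, Grap2, Ptprc and Ifit1bl1. Ptprc, which encodes the pan-leukocyte protein CD45, had 2350, 1140, 467 and 827 normalized counts in treated WD livers, 1320, 702 and 808 in WD saline livers, and 230, 183 and 202 in ND saline livers (2.30 ± 0.41, adjusted p = 0.000849). With each liver left out in turn its log2 fold change was between 1.89 and 2.67.

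Neutrophil genes were high in treated WD livers but uneven. Of 12 markers 9 were higher, with a median of 3.27, against 1.18 in WD saline livers. The count of higher markers was 4 without WD AN1284 replicate 2, 5 without ND saline replicate 2 and 3 without ND saline replicate 3. Their sums were 1100, 2860, 400 and 687 normalized counts in treated WD livers, 964, 232 and 278 in WD saline livers, and 221, 79 and 102 in ND saline livers, while an ND AN1284 5 mg/kg/day liver reached 1070. S100a8, a subunit of calprotectin, had 169, 575, 58.5 and 90.8 normalized counts in treated WD livers, 181, 21.4 and 33.1 in WD saline livers, and 31.9, 11.9 and 8.85 in ND saline livers (3.24 ± 0.93, adjusted p = 0.016, and 0.0662 without ND saline replicate 3). Csf3r, the receptor for granulocyte colony-stimulating factor, had 327, 249, 120 and 188 normalized counts in treated WD livers, 226, 120 and 123 in WD saline livers, and 62.6, 23.7 and 63.2 in ND saline livers (2.16 ± 0.35, adjusted p = 0.000266). Every treated liver exceeded the 9 ND livers, and the WD saline livers were in the same range.

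Inflammatory signals were high. Of 28 genes of the TNF, IL-1 and NF-κB pathways, 21 were higher and none was lower (median 1.05), and 21 passed on the WD alone (median 1.30). Leukocytes, whose summed markers are given above, express many of them, and the part of those sums in this result was not tested. Il1b, the interleukin-1β gene, had 661, 285, 183 and 349 normalized counts in treated WD livers, 269, 72.5 and 98.6 in WD saline livers, and 60.1, 29.0 and 22.8 in ND saline livers (3.24 ± 0.45, adjusted p = 0.000106), and it counted as moved further (1.40 against WD saline, adjusted p = 0.033). Il1rn, whose product blocks the IL-1 receptor, had 328, 297, 263 and 269 normalized counts in treated WD livers, 868, 383 and 542 in WD saline livers, and 35.8, 42.1 and 43.0 in ND saline livers (2.81 ± 0.30, adjusted p = 1e-05). The cytokine was thus above and its antagonist below the WD saline livers on average, and both were far above the ND saline livers. The ND AN1284 livers reached 191 for Il1b and 293 for Il1rn and overlapped the treated WD livers in both genes. Tnf had 41.7, 20.4, 6.16 and 15.7 normalized counts in treated WD livers, 16.5, 14.8 and 26.8 in WD saline livers, and 5.11, 1.32 and 1.26 in ND saline livers (2.52 ± 0.57, adjusted p = 0.00312). Tnfaip3, the deubiquitinase that ends NF-κB signalling, was 1.83 ± 0.23 higher on the log2 scale and above all 9 ND livers (adjusted p = 3.22e-05).

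Other cytokine genes were near the detection limit or weakly supported. Ccl2, a monocyte attractant, had 80.3, 80.7, 84.2 and 46.0 normalized counts in treated WD livers, 207, 120 and 190 in WD saline livers, and 44.7, 18.4 and 30.3 in ND saline livers (1.24 ± 0.45, adjusted p = 0.0442), a call lost without any 1 of 7 livers, with adjusted p up to 0.169 without ND saline replicate 2. Il10, an anti-inflammatory cytokine, had 37.8, 12.7, 7.18 and 7.85 normalized counts in treated WD livers, 6.79, 4.94 and 4.73 in WD saline livers, and 3.83, 0 and 6.32 in ND saline livers (2.09 ± 0.70, adjusted p = 0.0296), a call lost without WD AN1284 replicate 1 or 2 or ND saline replicate 2 (adjusted p up to 0.175). Nos2 and Cd3e, the inducible nitric oxide synthase and a chain of the T cell receptor complex, did not pass (adjusted p = 0.22 and 0.518). Of 30 interferon-stimulated genes 9 were higher and 1 was lower, and of 25 T and NK cell genes 4 were higher and 2 were lower (against 16.9% higher over all genes).

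**Figure D4:**
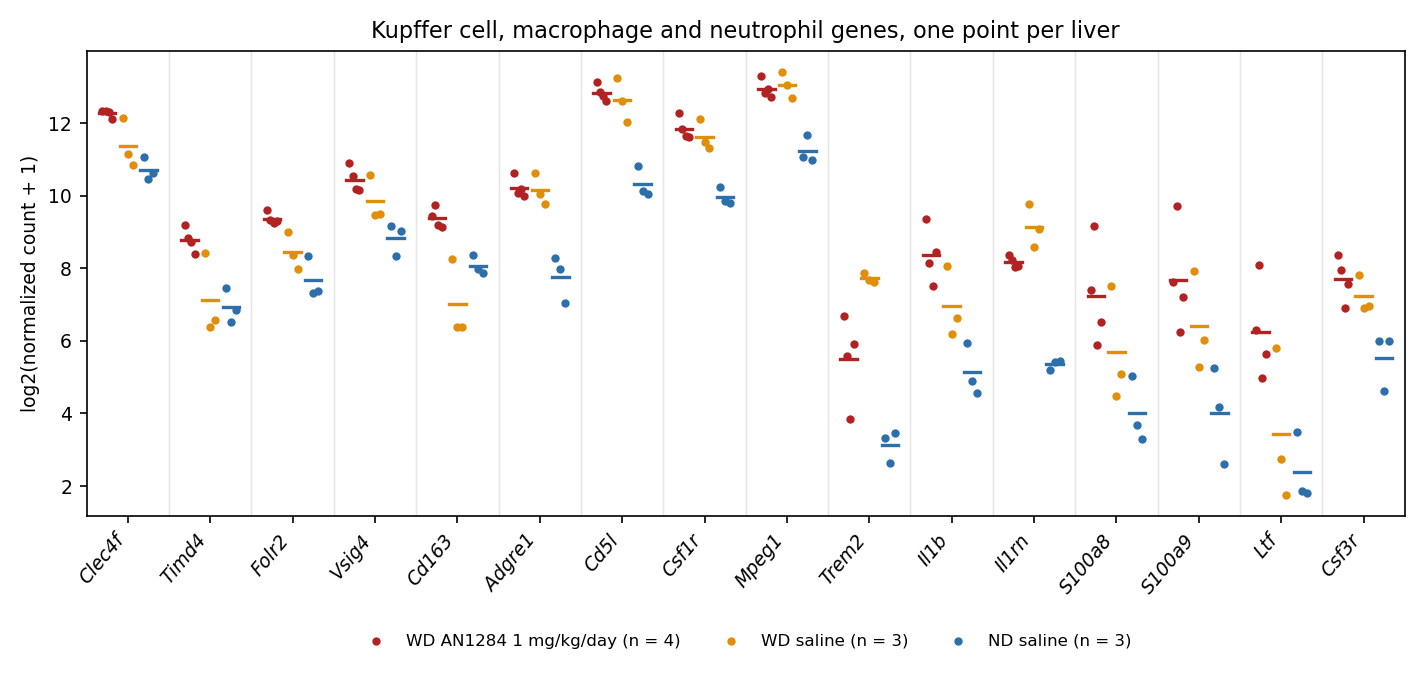
Kupffer cell, macrophage and neutrophil genes, with each point the log2(normalized count + 1) of a liver and each line a group mean (WD AN1284 1 mg/kg/day, n = 4, red; WD saline, n = 3, orange; ND saline, n = 3, blue). Red points lie above blue ones in every gene shown, above most orange ones at Timd4 and Cd163 and below them at Trem2 and Il1rn, and in the neutrophil genes they are widely spread.

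Few matrix and bile duct genes still differed from the normal level in the test. Of 46 collagens and matrix genes, 9 were higher and 1 was lower (19.6% and 2.17%, against 16.9% and 13.5% of all genes), with a median of 0.22. None of the higher genes lay above all 9 ND livers, while over all genes 380 of the 2496 higher ones did. On the WD alone 42 of the list had passed, with a median of 1.75. The higher genes numbered 5 without WD AN1284 replicate 1, without ND saline replicate 3 or without WD saline replicate 3, and 15 under scaling by totals. Col1a1, the main fibrillar collagen and chosen after its values were seen, had 756, 299, 247 and 192 normalized counts in treated WD livers, 2230, 5100 and 4340 in WD saline livers, and 351, 350 and 320 in ND saline livers (-0.08 ± 0.48, adjusted p = 0.918). Replicate 1 was the highest treated liver, and the other 3 were below the ND saline livers. Col4a1, a basement membrane collagen, was still higher than in ND saline livers, with 1680, 1110, 1140 and 1410 normalized counts in treated WD livers, 3860, 3820 and 4320 in WD saline livers, and 896, 907 and 830 in ND saline livers (0.59 ± 0.15, adjusted p = 0.00664). The ND AN1284 livers had 765 to 1650 for Col4a1, which overlapped the treated WD livers. Tgfb1, the fibrogenic growth factor, had 760, 494, 387 and 435 normalized counts in treated WD livers, 851, 575 and 547 in WD saline livers, and 302, 170 and 233 in ND saline livers (1.13 ± 0.25, adjusted p = 0.0029), so that it overlapped the WD saline livers and exceeded the ND saline livers. Timp1, an inhibitor of matrix proteases, had 15.0, 6.80, 9.24 and 8.97 normalized counts in treated WD livers, 94.1, 140 and 129 in WD saline livers, and 6.39, 2.63 and 2.53 in ND saline livers, and did not pass (adjusted p = 0.109).

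Of 12 cholangiocyte markers none was higher and 3 were lower than normal, with a median of -0.46, against 1.65 in WD saline livers. With each liver left out in turn 0 to 4 were lower. Their summed normalized counts were 1580 to 2350 in treated WD livers, 8260 to 13800 in WD saline livers and 2400 to 3660 in ND saline livers. Treated livers thus lay below every ND saline liver, but narrowly (2350 against 2400), and abundant members weigh most in such a sum. Sox9, a transcription factor of bile ducts, had 221, 320, 224 and 195 normalized counts in treated WD livers, 513, 677 and 617 in WD saline livers, and 396, 348 and 609 in ND saline livers (-0.89 ± 0.23, adjusted p = 0.00684, and 0.055 without ND saline replicate 3). Spp1, which encodes osteopontin, had 1510, 1120, 1060 and 875 normalized counts in treated WD livers, 6450, 10000 and 11200 in WD saline livers, and 2420, 1450 and 1880 in ND saline livers, and did not pass (-0.75 ± 0.35, adjusted p = 0.115). Stellate cell and fibroblast markers were higher in 4 of 16 and lower in 1, with sums of 10400 to 13800 in treated WD livers and 9550 to 15900 in ND saline livers.

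Endothelial markers were partly higher. Of 16 sinusoidal endothelial markers, 10 were higher and none was lower (median 0.56). Their sums were 10800 to 12500 in treated WD livers, 10700 to 16100 in WD saline livers and 7460 to 8170 in ND saline livers. The ND AN1284 livers had sums of 7340 to 8720 at 1 mg/kg/day and 9220 to 12800 at 5 mg/kg/day. The latter covered the treated WD range. None of the higher markers lay above all 9 ND livers, while over all genes 380 of the 2496 higher ones did. Stab2, a scavenger receptor of these cells, was 0.99 ± 0.15 higher on the log2 scale (adjusted p = 0.000155). Id1, a target of BMP and SMAD signalling, had 277, 336, 321 and 251 normalized counts in treated WD livers, 214, 175 and 202 in WD saline livers, and 62.6, 44.8 and 67.0 in ND saline livers (2.34 ± 0.23, adjusted p = 4.29e-06). Smad7, the inhibitory SMAD of the same pathways, had 619, 590, 726 and 528 normalized counts in treated WD livers, 454, 346 and 381 in WD saline livers, and 138, 215 and 245 in ND saline livers (1.65 ± 0.18, adjusted p = 1.5e-05), and counted as moved further. Both lay above all 9 ND livers, although the ND AN1284 livers, at 319 to 520 for Smad7, were above the ND saline livers as well. Hamp, which encodes the iron hormone hepcidin and answers to the same signals, had 12300, 10300, 12900 and 17300 normalized counts in treated WD livers, 2270, 2620 and 1430 in WD saline livers, and 6940, 6370 and 9190 in ND saline livers. All its treated livers were above the ND saline livers, and the test did not pass (0.81 ± 0.34, adjusted p = 0.0865).

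Cell division genes were higher in 17 of 34 and lower in 1, with a median of 0.80 in treated WD livers and 1.96 in WD saline livers. The count of higher genes was 9 without WD AN1284 replicate 1 and 11 without ND saline replicate 2. Ccnd1, cyclin D1, had 1460, 1130, 983 and 1130 normalized counts in treated WD livers, 1750, 2540 and 2870 in WD saline livers, and 413, 410 and 374 in ND saline livers (1.54 ± 0.17, adjusted p = 1.67e-05). Mki67, the proliferation antigen Ki-67, had 567, 290, 111 and 205 normalized counts in treated WD livers, 455, 606 and 687 in WD saline livers, and 70.3, 56.6 and 82.2 in ND saline livers (1.83 ± 0.41, adjusted p = 0.00326). Replicate 1 was again the highest treated liver and replicate 3 the lowest. The p53 targets Cdkn1a and Mdm2 did not pass (adjusted p = 0.367 and 0.685).

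Past the normal level, 33 genes had crossed from one side of the ND saline livers to the other. In 24 the treated WD and ND saline livers did not overlap, and in 8 the treated livers lay outside all 9 ND livers. Over all genes that passed, the latter held for 688 of 4488. Gstm3, a glutathione S-transferase at chr3:107963696-107969283 (GRCm38), had 1300, 988, 1010 and 1240 normalized counts in treated WD livers, 7930, 7760 and 14600 in WD saline livers, and 2140, 1710 and 2380 in ND saline livers (-0.87 ± 0.23, adjusted p = 0.00899). It was the only gene that counted as past the normal level with each liver left out in turn. Its lowest ND AN1284 liver had 1310, next to the highest treated liver. Its family has near-identical copies. Pdk4, the kinase that closes pyruvate dehydrogenase, had 203, 350, 273 and 235 normalized counts in treated WD livers, 1570, 1280 and 1920 in WD saline livers, and 406, 392 and 567 in ND saline livers (-0.78 ± 0.20, adjusted p = 0.00664, and 0.051 without ND saline replicate 3). The ND AN1284 livers spanned 110 to 664 and so held the treated range. Tubb2a, a β-tubulin, had 2310, 3360, 3060 and 2910 normalized counts in treated WD livers, 13100, 12900 and 13100 in WD saline livers, and 4250, 3730 and 4660 in ND saline livers (-0.54 ± 0.15, adjusted p = 0.0133, and 0.0679 without ND saline replicate 3). The 1970 to 3240 of the ND AN1284 livers again covered most of the treated ones. Serpinh1, the collagen chaperone HSP47, had 521, 372, 389 and 323 normalized counts in treated WD livers, 1090, 1590 and 1290 in WD saline livers, and 891, 623 and 578 in ND saline livers (-0.79 ± 0.22, adjusted p = 0.012, and 0.0813 without ND saline replicate 1). Its treated livers overlapped the ND AN1284 livers, which averaged 513 at 1 mg/kg/day and 636 at 5 mg/kg/day.

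Among the 11 genes past the normal level on the high side, Scara5, a ferritin receptor, had the largest fold change against ND saline. It had 1500, 1770, 1170 and 1540 normalized counts in treated WD livers, 329, 169 and 185 in WD saline livers, and 270, 564 and 746 in ND saline livers (1.61 ± 0.35, adjusted p = 0.00287). Its WD saline livers overlapped the ND saline livers, and the ND AN1284 livers ranged from 763 to 1920. Slc39a14, a carrier of zinc and iron, had 5990, 6170, 5790 and 6850 normalized counts in treated WD livers, 3310, 2800 and 3330 in WD saline livers, and 3220, 4890 and 4510 in ND saline livers (0.58 ± 0.13, adjusted p = 0.00353). The ND AN1284 livers had 4630 to 6380, which overlapped the treated WD livers. Cd163, the haemoglobin scavenger receptor of macrophages, had 700, 862, 585 and 564 normalized counts in treated WD livers, 305, 82.4 and 82.0 in WD saline livers, and 332, 252 and 233 in ND saline livers (1.31 ± 0.40, adjusted p = 0.0201). For Cd163 the ND AN1284 livers spanned 245 to 615 and overlapped the treated WD livers. Fcna, a ficolin of the lectin complement pathway, had 1630, 1890, 1710 and 1800 normalized counts in treated WD livers, 886, 391 and 354 in WD saline livers, and 1260, 720 and 809 in ND saline livers (0.96 ± 0.28, adjusted p = 0.018), and lay above all 9 ND livers. The call of Cd163 was lost without WD AN1284 replicate 2 or ND saline replicate 2 or 3 (adjusted p up to 0.074), and that of Fcna without ND saline replicate 2 or 3 (adjusted p up to 0.0707). Saa4, a constitutive serum amyloid, and Cxcl13, a B cell attractant, passed narrowly (adjusted p = 0.0447 and 0.0431). These calls were lost without any 1 of 5 and any 1 of 6 livers. Adjusted p was up to 0.231 without ND saline replicate 1 for Saa4 and up to 0.124 without ND saline replicate 3 for Cxcl13. In both genes the treated WD livers overlapped the ND AN1284 livers, which reached 236 for Cxcl13, against a lowest treated value of 183.

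**Figure D5:**
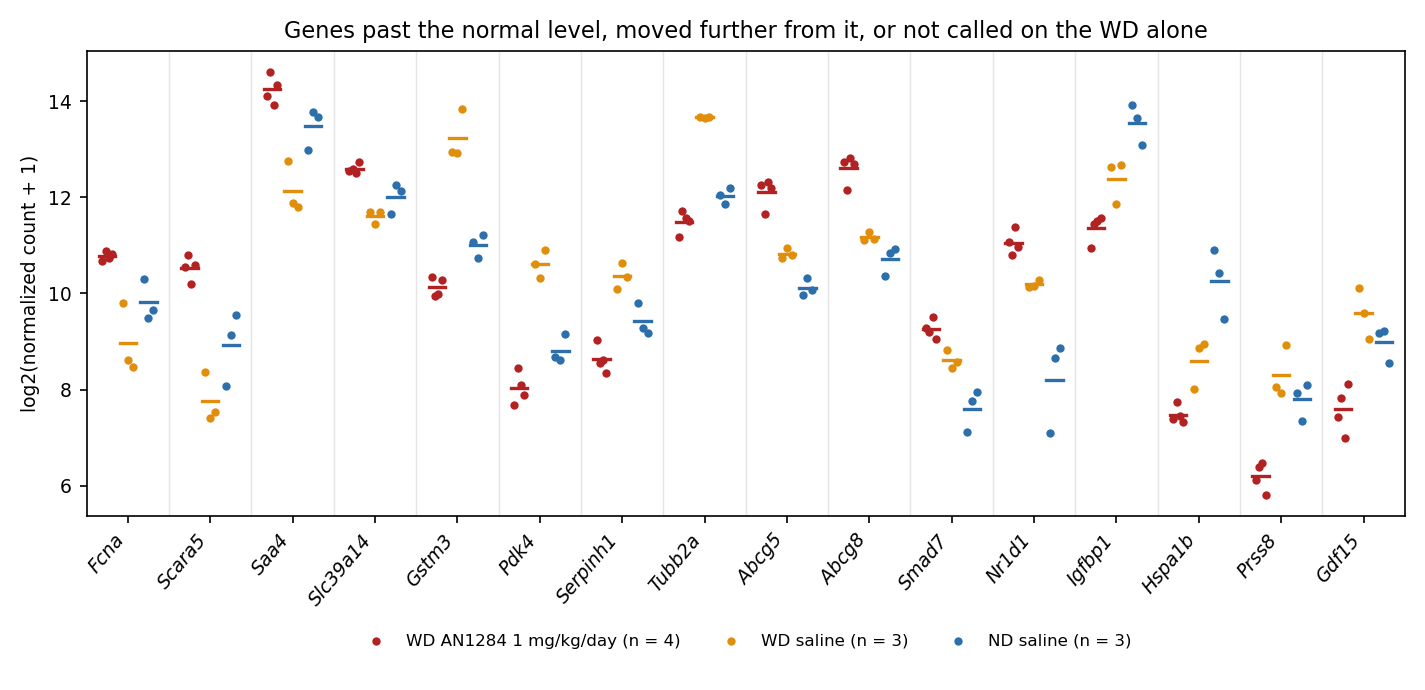
Genes past the normal level (Fcna to Tubb2a), moved further from it (Abcg5 to Hspa1b) or called in treated WD livers and not on the WD alone (Prss8 and Gdf15), with each point the log2(normalized count + 1) of a liver and each line a group mean (WD AN1284 1 mg/kg/day, n = 4, red; WD saline, n = 3, orange; ND saline, n = 3, blue). In the first set the blue mean lies between the red and orange ones, and in the second the red mean is further from blue than the orange one.

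Genes that did not pass on the WD alone included some that were lower in treated WD livers. Prss8, the membrane protease prostasin, had 68.5, 82.4, 87.2 and 54.9 normalized counts in treated WD livers, 264, 241 and 486 in WD saline livers, and 244, 161 and 274 in ND saline livers (-1.60 ± 0.24, adjusted p = 0.000129, and -2.11 against WD saline, adjusted p = 7.6e-06). Cystm1 had 124, 156, 68.8 and 121 normalized counts in treated WD livers, 266, 300 and 317 in WD saline livers, and 429, 227 and 283 in ND saline livers (-1.41 ± 0.22, adjusted p = 0.000221, and -1.37 against WD saline, adjusted p = 0.00025). Both genes lay below all 9 ND livers and below the WD saline livers. Gdf15, a stress-induced hormone that lowers appetite, had 171, 227, 126 and 278 normalized counts in treated WD livers, 1110, 766 and 530 in WD saline livers, and 578, 597 and 373 in ND saline livers (-1.39 ± 0.39, adjusted p = 0.0142, and 0.0557 without ND saline replicate 1), with 66.9 to 298 in the ND AN1284 livers. It passed against WD saline as well (-1.99, adjusted p = 0.0016), while the WD AN1284 5 mg/kg/day livers had 328 to 580.

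In several genes the ND saline livers stood apart from the ND AN1284 livers as well, among them Hspa1b, Nr1d1 and Igfbp1. Of 16 heat shock genes 14 were lower in treated WD livers (median -0.81). None lay below all 9 ND livers, while over all genes 308 of the 1992 lower ones did. Hspa1b, an inducible chaperone with the near-identical copy Hspa1a, had 166, 212, 173 and 159 normalized counts in treated WD livers, 258, 462 and 490 in WD saline livers, and 1920, 1380 and 706 in ND saline livers (-2.80 ± 0.29, adjusted p = 8.61e-06). In ND AN1284 livers it lay between 111 and 210. Nr1d1, the clock repressor REV-ERBα, had 2140, 1780, 2680 and 2010 normalized counts in treated WD livers, 1120, 1140 and 1240 in WD saline livers, and 135, 402 and 464 in ND saline livers (2.85 ± 0.29, adjusted p = 9.22e-06). In ND AN1284 livers it lay between 1260 and 2620. Igfbp1, the insulin-suppressed IGF-binding protein, had 1980, 2790, 2900 and 3040 normalized counts in treated WD livers, 6330, 3730 and 6490 in WD saline livers, and 15500, 12900 and 8730 in ND saline livers (-2.19 ± 0.32, adjusted p = 0.000153). Here the ND AN1284 livers had 1770 to 2810. In Hspa1b, Nr1d1 and Igfbp1 the treated WD livers and the ND AN1284 livers overlapped, and the ND saline livers lay apart from them. Ppp1r3g, Dnajb1, Bag3, Palld, Cdc42ep5 and Id2, also counted as moved further, had ND AN1284 means nearer the treated WD mean than the ND saline mean. Of 20 clock genes 5 were higher and 6 were lower, with a median of -0.04, against 16.9% higher and 13.5% lower over all genes.

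Genes of the unfolded protein response were lower in 13 of 26 and higher in 2, but 5 were lower without ND saline replicate 1 and 5 under scaling by totals. Hspa5, the chaperone BiP, had 21400, 21800, 24200 and 19200 normalized counts in treated WD livers, 25800, 26600 and 26600 in WD saline livers, and 36200, 36100 and 28700 in ND saline livers (-0.63 ± 0.17, adjusted p = 0.00875). The ND AN1284 livers, at 22100 to 42500, covered most of both ranges. Of 20 acute phase genes 6 were higher and none was lower. Lcn2, an iron-withholding acute phase protein, had 14000, 18200, 11200 and 8830 normalized counts in treated WD livers, 27600, 5120 and 4550 in WD saline livers, and 865, 2110 and 827 in ND saline livers (3.45 ± 0.96, adjusted p = 0.0155), a call lost without ND saline replicate 1 or 3 (adjusted p up to 0.0566). Saa1, an acute phase serum amyloid, had 40600, 83700, 81000 and 40700 normalized counts in treated WD livers, 47900, 7660 and 5230 in WD saline livers, and 20400, 18500 and 4320 in ND saline livers, and did not pass (2.30 ± 1.13, adjusted p = 0.138). For both genes an ND AN1284 liver was also high, with up to 16700 for Lcn2 and 172000 for Saa1.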

How the data were processed

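RNA from 19 snap-frozen mouse livers in 6 groups was analysed from a table of the whole series. The submitters' processing notes name cutadapt 1.18 for trimming, TopHat2 2.1.1 with GRCm38 for alignment, HTSeq 0.6.0 for counting and DESeq2 1.22.1 for scaling. The deposited raw reads per gene hold a question mark in 6252 of 54838 genes and were recorded as other values, so no negative binomial count test was run. The normalized counts, recorded as a score, are the same reads divided by the authors' size factors. Columns holding the authors' own comparisons (fold changes and p-values) were not used. Genes with a normalized count of at least 10 in at least 3 livers were kept, log2(value + 1) was taken, which understates changes of low genes, and limma 3.58.1 in R 4.3.3 fitted all 6 groups with trend and robust options. Benjamini-Hochberg adjusted p under 0.05 over the 14743 genes was called. Simulated data of 14583 genes gave back 83% of changes of 1 and 100% of changes of 2 on the log2 scale, with 11 false calls. Errors are SE of the fit.

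Named by rule were genes with no overlap between the groups and a mean of at least 100: the 12 largest rises and falls, the 8 largest past the normal level, the 6 largest not called on the WD alone or moved further, the 4 members of each list with the smallest p at most, and genes the study names. Other genes are list members or were chosen after their values were seen, and some genes the rule names are not reported here. The comparison, lists and genes were chosen with earlier results of these data known. Sequencing was done in 2 runs, and no label ties a library to a run, so a run effect cannot be told apart. Intervals and counts rest on reads without molecular identifiers. Alternatives were scaling by totals or upper quartile, pseudocounts of 0.5 and 5, no filter, a base mean above 150, voom on raw values, 3 groups only, no trend, a replicate block and leaving out each liver; counts of list members under these were added after seeing the data.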

Additional observations from a re-analysis of the deposited data

Results flagged for a closer look

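Among the 4 treated WD livers, 1 liver stood far from the other 3 in 7 of the 142 genes examined, by Dixon's ratio, and chance flags about 1 gene in 20. Replicate 1 stood apart in Ly6d, a surface protein of fatty liver, with 503 normalized counts, and in the sterol reductase Tm7sf2, with 1200. Replicate 2 stood apart in S100a9, the other calprotectin subunit, with 835. Replicate 3 stood apart in Abcb11, with 22200, and in Nr1i3, with 2290. Replicate 4 stood apart in Clec4f, with 4420, and in Ccl2, with 46.0.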

How the results depend on the processing

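With each of the livers of the 3 groups left out in turn, 3067 to 4646 genes passed, 1857 to 2510 higher and 1178 to 2136 lower, and 2619 to 3902 counted as still changed, 9 to 41 as past the normal level, 395 to 1000 as not called on the WD alone and 5 to 68 as moved further. The lowest counts of lower genes, 1210 and 1178, came without ND saline replicates 1 and 3, the 9 genes past the normal level without either of these, and 5 and 11 genes moved further without WD saline replicates 3 and 2. Scaling by totals gave 4175 higher and 838 lower genes. Requiring a base mean above 150 left 1478 higher genes and 434 not called on the WD alone, with fewer genes tested. The genes moved further were 19 without the filter, 19 with 3 groups only and 19 without trend and robust weights. The groups share replicate numbers, but same-numbered treated WD and ND saline livers did not deviate together (correlations 0.046, -0.081 and -0.05). With 3 ND saline livers these values cannot settle whether the numbers pair the mice. The fit with a replicate block, in which WD AN1284 replicate 4 has no partner, passed 4255 genes. Of the 142 genes of the text, 121 passed, none reversed under an alternative, 97 passed under every alternative run, and 104 with each liver left out in turn. With voom on the raw values 8 calls were lost, among them Cfd (adjusted p = 0.0715), Itgax (0.0711) and S100a8 (0.102), and 2 of 12 neutrophil markers passed. Scaling by totals lost Cyp27a1, Nr1i3, Alb, Tubb2a, Serpinh1, Hspa5 and Stard4 and added Nr1h3 and Hamp (adjusted p = 0.00302 and 0.0277). With 3 ND saline livers, the size of small changes depends on single controls.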

Other observations

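A few genes of glucose use, chosen after their values were seen, are given as values. Hk2, a hexokinase of muscle, fat and dividing cells, had 261, 161, 103 and 119 normalized counts in treated WD livers, 348, 346 and 303 in WD saline livers, and 54.9, 26.3 and 41.7 in ND saline livers (log2 fold change 1.91 ± 0.28, SE, limma adjusted p = 0.00013). Pkm, the pyruvate kinase of most tissues other than liver, was 1.31 ± 0.30 higher on the log2 scale (adjusted p = 0.00393). Livers of ND AN1284 mice reached 117 for Hk2 and 1060 for Pkm, within the range of the treated WD livers. Ldha, lactate dehydrogenase A, had 24900, 33600, 28000 and 31800 normalized counts in treated WD livers, 21200, 23500 and 20600 in WD saline livers, and 17800, 17900 and 16800 in ND saline livers, so that all treated livers exceeded all WD saline and all 9 ND livers (0.75 ± 0.13, adjusted p = 0.00033). The liver form Pklr did not pass (adjusted p = 0.592).

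Of 28 complement genes, 7 were higher and 5 were lower (17.9%), beside 16.9% and 13.5% of all genes, so that the list stood little above that background. C1qb, a product of macrophages, had 4310, 3510, 2570 and 3390 normalized counts in treated WD livers, 3710, 3280 and 2290 in WD saline livers, and 1410, 827 and 1130 in ND saline livers (1.63 ± 0.27, adjusted p = 0.000339). An ND AN1284 liver reached 3120 for C1qb, within the treated WD range. C8b, a hepatocyte product of the lytic complex, had 5330, 4990, 5880 and 5890 normalized counts in treated WD livers, 1520, 1560 and 927 in WD saline livers, and 11700, 12900 and 11400 in ND saline livers (-1.12 ± 0.17, adjusted p = 0.000164). Enho, which encodes the secreted peptide adropin, had 68.5, 107, 50.3 and 48.2 normalized counts in treated WD livers, 13.6, 21.4 and 15.0 in WD saline livers, and 546, 493 and 140 in ND saline livers (-2.35 ± 0.39, adjusted p = 0.000348), below all 9 ND livers.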
